A study of Mus musculus with 5 samples.

Results

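Transcripts of the proteasome were followed in haematopoietic stem cells (HSCs), the rare bone marrow cells from which all blood lineages arise. The set comprised the subunits of the 20S core, the base and lid of the 19S regulatory particle, 3 chaperones of base assembly and 4 activators. Members were taken by gene symbol (Psma, Psmb, Psmc and Psmd followed by a number, and Psme1 to Psme4), without the immunoproteasome subunits Psmb8, Psmb9 and Psmb10, and had to reach 100 counts summed over the libraries. Of 35976 gene rows, 40 matched and 39 were kept, since Psmb11, the thymus-specific beta subunit, had 0 counts in every library. All 39 passed the expression filter of the test.

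The 5 libraries were made by Smart-seq2, which amplifies full-length cDNA from few cells, each from 30 sorted cells of 1 C57BL/6 mouse. In all, 3 libraries are labelled Ythdf3-/- and 2 are labelled WT. The sort took cells without lineage markers or CD34 and with Sca-1, c-kit and CD150. YTHDF3 is a cytoplasmic protein that binds N6-methyladenosine in mRNA. The labels describe neither the knockout allele, the cells in which it acts, nor the age of the mice, and the series text counts the groups the other way round, as 2 knockouts and 3 wild types.

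The proteasome degrades proteins that carry ubiquitin chains. In its 20S core, outer rings of alpha subunits form the gate and inner rings of beta subunits hold the proteolytic sites. The 19S particle caps the core. Its base unfolds substrates with a ring of ATPases, and its lid removes the ubiquitin. Activators such as PA28 and PA200 can bind the core in place of the 19S particle, and in cells exposed to interferon the 3 catalytic beta subunits are exchanged for immunoproteasome forms. HSCs make protein slowly compared with their progeny and are known to be sensitive to faults in protein quality control.

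The libraries held between 6357862 and 16650134 counts, of which 61703 to 156847 fell on the members. The targeted gene went against the labels in the libraries labelled Ythdf3-/- 2 and 3, and was lowest in that labelled Ythdf3-/- 1. Counts of Ythdf3 were 2, 339 and 366 under the Ythdf3-/- label (replicates 1, 2 and 3), against 20 and 29 under the WT label (replicates 1 and 2), so directions below refer to labels alone. HSC markers were read in every library, with all 10 of the list detected, at 1 count or more, in each. Some were nearly missing from single libraries of either label. Slamf1, which encodes CD150, had 1 count in the library labelled WT 2. Fgd5 had 2 and 5 counts in those labelled Ythdf3-/- 1 and 3. Ctnnal1 had 5 and 28 counts in those labelled Ythdf3-/- 1 and WT 2. The library labelled WT 2 also had 1061 counts of the erythroid factor Gata1, at most 6 elsewhere. Its 8 mitosis markers summed to 535 CPM (counts scaled to a common library total), against 32.3 to 164 CPM in the others. Of these markers Mki67, Top2a, Ccnb2 and Cdca8 were highest in that library, at 834 to 1653 counts. Ccnb1, Aurkb and Bub1 had 4, 4 and 0 counts there, and Cdk1 was not highest there. The library labelled Ythdf3-/- 1 stood apart by 117770 counts of the globin gene Hba-a1, at most 2438 elsewhere. The summed levels of 3 other lists of blood cell markers did not overlap between the labels. Those of the HSC, multipotent progenitor, erythroid, B lineage, neutrophil and mitosis lists overlapped. Among single genes tested, 20.7% did not overlap in either direction. The 7 monocyte and macrophage markers summed to 736 to 1095 CPM under the Ythdf3-/- label and 460 to 464 CPM under the WT label. Between 3 and 6 were detected in a library, with Csf1r at 0 in 4 libraries and Adgre1 at 1 count at most. Lyz2 made up most of these counts in every library, at 3731 to 7220. C1qb was highest in the library labelled WT 2, at 425 counts. The 4 T and NK cell markers summed to 14.1 to 93.1 CPM against 0.841 to 10.3 CPM, with 1 to 3 detected and Cd8a at 0 throughout. The 5 megakaryocyte markers summed to 140 to 200.1 CPM against 210.2 to 287 CPM, with 4 or 5 detected. Their part in the differences between labels below was not tested. In such bulk samples fewer cells of a type and less RNA per cell cannot be told apart.

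The proteasome as a whole took nearly the same share of every library. The 39 members summed to 9705, 9854 and 9584 CPM in the libraries labelled Ythdf3-/- 1, 2 and 3, and to 9420.2 and 9838 CPM in those labelled WT 1 and WT 2. The highest library was 1.05 times the lowest, while total counts per library covered the far wider range given above. The groups overlapped, with means of 9714 ± 135 CPM (SD, n = 3) under the Ythdf3-/- label and 9629 ± 296 CPM (SD, n = 2) under the WT label. The lowest share was 0.942% of counts (95% Wilson interval 0.937 to 0.947%) and the highest 0.985% (0.979 to 0.992%), where the intervals cover counting error alone. With library sizes rescaled by TMM factors the highest library was 1.13 times the lowest, and the ratio of the group means (Ythdf3-/- label over WT label) was 0.950, in place of 1.01.

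Beneath that sum the classes differed in how evenly they were read. The beta ring was the steadiest class, at 2426, 2367 and 2558 CPM under the Ythdf3-/- label and 2654 and 2716 CPM under the WT label. Every library labelled Ythdf3-/- lay below both labelled WT, by a ratio of means of 0.912. With library sizes rescaled by TMM factors the ratio was 0.859. Of its 7 members, 2 lay wholly below under the Ythdf3-/- label (background 11% of genes), and 2 were fitted higher. The sums of the other classes overlapped between the labels. The alpha ring was less even, at 2482, 3010.3 and 2364 CPM under the Ythdf3-/- label and 2168 and 3296 CPM under the WT label. Here both libraries labelled WT lay outside the range of the others, one below and one above.

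The 19S base summed to 1881, 1911 and 2109.8 CPM under the Ythdf3-/- label and to 1995 and 1479 CPM under the WT label. The lid summed to 1533, 1307 and 1168 CPM against 1447 and 1225 CPM. The 3 base assembly chaperones varied most, from 335 to 559 CPM under the Ythdf3-/- label, against 425 and 230.1 CPM under the WT label. The activators summed to 1047, 825 and 826 CPM under the Ythdf3-/- label and 731 and 892 CPM under the WT label. No class was given a test, since the members were chosen as a list.

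**Figure D1:**
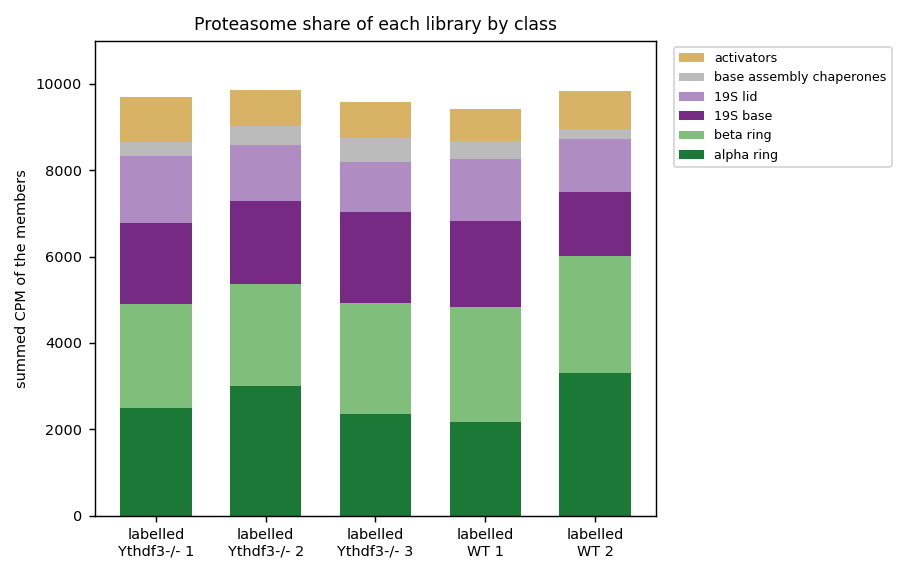
Summed CPM (vertical axis) of the proteasome members in each library (horizontal axis, libraries labelled Ythdf3-/- first), stacked by class. The full bars lie between 9420.2 and 9854 CPM, and the library labelled WT 2 has the tallest alpha ring and the shortest 19S base.

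The library labelled WT 2 had the most core and the least base. Its ratio of summed core to summed base and lid was 2.22 in CPM, against 1.40 in the library labelled WT 1 and 1.44, 1.67 and 1.50 in those labelled Ythdf3-/-. Per kilobase of exon the same ratio was 3.33 there, against 2.32 to 2.69 in the other 4 libraries. Of the 15 core members 7 were highest in that library and 1 was lowest there, while of the 17 members of base and lid 1 was highest and 5 were lowest. This was also the library with the high Gata1 counts and the highest sum of mitosis markers given above. The part of either in the ratio was not tested.

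Between the labels, no subunit passed the edgeR quasi-likelihood test adjusted over all 11146 genes tested (0 of 39; background 0% of genes), with adjusted p between 0.964 and 0.9998. At an unadjusted p under 0.05 there was 1 member, Psmd2, against a background of 4.85% of genes. DESeq2, which called 4.47% of the genes it adjusted, called 0 members, with a smallest adjusted p of 0.191, and limma voom called 0. A member that did not pass is not shown to be equal between the labels, and over all genes the common biological coefficient of variation was 1.26. The fitted level was lower under the Ythdf3-/- label for 25 of 39 members, against 52.2% of all genes tested, and the median log2 fold change was -0.15, against -0.06 for all genes. With 1 library left out at a time, 19 of the 39 changed direction at least once. For 10 members (Psmc6, Psmd2, Psmd4, Psmd5 and Psmd8, and Psmb3, Psmb7, Psmc1, Psmd1 and Psmd3) the libraries of one label lay wholly above those of the other, which is 25.6% against a background of 20.7%. The first 5 were above under the Ythdf3-/- label (background 9.74%) and the others below (background 11%). These shares are near the background. Without the library labelled WT 2 the count was 25 of 39, against 47.4% of all genes, in a comparison that leaves 1 library labelled WT.

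**Figure D2:**
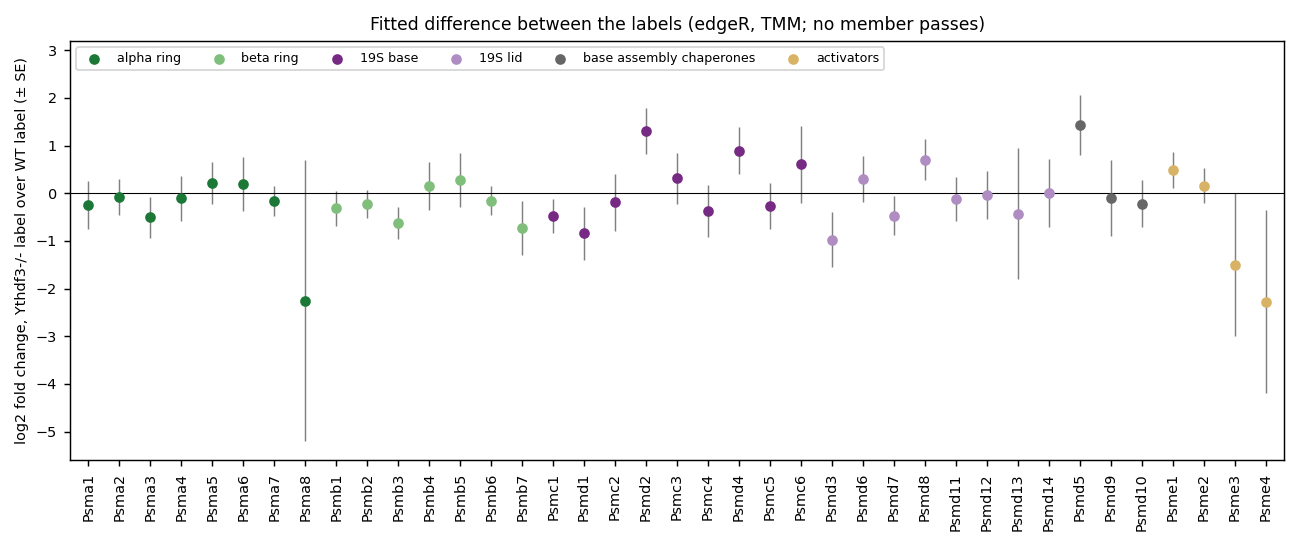
Fitted log2 fold change of each member, Ythdf3-/- label over WT label (vertical axis), with its standard error, ordered by class (colour). Psmd2, Psmd4 and Psmd5 stand highest and Psma8, Psme4 and Psme3 lowest with the widest bars.

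In the alpha ring, Psma7 was the most abundant subunit with groups that overlapped. It had 743, 946 and 610.3 CPM under the Ythdf3-/- label and 736 and 874 CPM under the WT label. Psma3, the subunit with the smallest p among the standard alpha subunits, had 254, 507 and 559 CPM under the Ythdf3-/- label and 455 and 712 CPM under the WT label. The groups overlapped, and its log2 fold change was -0.51 (SE 0.42). Psma1, Psma4 and Psma6 were highest in the library labelled WT 2 and lowest in that labelled WT 1, so that Psma6 had 265, 294 and 236 CPM under the Ythdf3-/- label, between 91.6 and 338 CPM under the WT label. Psma2 and Psma5 were highest in a library labelled Ythdf3-/- and differed at most 2.03 times among the 5. Psma8, a paralogue of Psma7 known from testis, had 0, 86 and 0 counts under the Ythdf3-/- label and 135 and 183 counts under the WT label. A count of 0 allows up to 0.472 and 0.428 CPM in those 2 libraries, if the limit is set at 3 counts. This limit covers counting error alone, not transcripts lost before sequencing. Where it was read it reached 8.11 to 20.4 CPM.

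In the beta ring, Psmb3 was below under the Ythdf3-/- label in every library. It had 422, 293 and 328 CPM there, against 523 and 486 CPM under the WT label, with a log2 fold change of -0.63 (SE 0.33) that did not pass (edgeR adjusted p = 0.988). Psmb1 had 395, 247 and 344 CPM against 416 and 355 CPM, with overlapping groups. Psmb2 was the most even member of all, between 464 and 583 CPM over the 5 libraries. Psmb4 ranged from 362 to 519 CPM under the Ythdf3-/- label, within the 192 and 569.8 CPM of the libraries labelled WT.

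The catalytic subunits carry the chymotrypsin-like (Psmb5), caspase-like (Psmb6) and trypsin-like (Psmb7) activities. Psmb5 had 106, 158 and 175 CPM under the Ythdf3-/- label and 81.4 and 144 CPM under the WT label, and Psmb6 had 558, 546 and 635 CPM against 718 and 499 CPM. Both overlapped between the labels. Psmb7 had 94.7, 140.1 and 71.0 CPM under the Ythdf3-/- label and 141 and 176 CPM under the WT label, so that the nearest libraries almost touched. The fitted log2 fold change was -0.72 (SE 0.57). Its exons share 405 bases with those of Nek6, and reads there cannot be assigned without strand. Per kilobase of merged exons, averaged over the 5 libraries, Psmb6 stood at 741 CPM, Psmb5 at 148 CPM and Psmb7 at 107 CPM, although the assembled core holds them in equal number. Over the 14 standard core subunits the highest mean per kilobase, that of Psmb6, was 7.23 times the lowest, that of Psmb1. These levels depend on the merged exon length, which was 3.427 kb for Psmb1 and 0.798 kb for Psmb6. In CPM the mean of Psmb1 was 351, above the 133 of Psmb5 and the 125 of Psmb7.

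Proteasome genes are known to be induced together by the factor NRF1, which binds antioxidant response elements. The letters TGACNNNGC, the core of that element, were searched on both strands from 250 bases before to 50 after the RefSeq start (GRCm38.p6), in windows found for 32 of the 39 members. They occurred in 6 members (18.8%), against 17.2% of tested genes and 14% of all genes with a window. Among the 6 were Psmb5 and Psmb6, whose stretches from 140 bases before to 10 after the start are shown because they are catalytic subunits that hold the letters, which stand in capitals.
Psmb5 promoter (chr14:54617986-54618135, minus strand): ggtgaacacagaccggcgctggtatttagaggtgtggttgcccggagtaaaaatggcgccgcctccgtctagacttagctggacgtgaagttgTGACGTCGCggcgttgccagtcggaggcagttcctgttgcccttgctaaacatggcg
Psmb6 promoter (chr11:70525217-70525366, plus strand): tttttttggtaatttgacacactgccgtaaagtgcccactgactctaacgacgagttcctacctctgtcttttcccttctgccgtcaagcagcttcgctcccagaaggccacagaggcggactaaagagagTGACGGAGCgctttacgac

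The match begins 47 bases before the start of Psmb5 and 9 before that of Psmb6. The other members with the letters were Psmc6, Psmd9, Psmd12 and Psme4. The looser TGANNNNGC, which includes every TGACNNNGC, occurred in 18 of the 32 (56.2%), against 47.8% of tested genes, and CCAAT in 12 (37.5%), against 42.7%. The letters CCGGAAG, the core bound by ETS factors, occurred in 12 (37.5%), against 21.4% of tested genes and 9.93% of all genes. Median GC content was 59% in the members' windows and 60.7% in those of tested genes.

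Immunoproteasome transcripts were abundant in these cells. Psmb8, the counterpart of Psmb5, had 689, 608 and 816 CPM under the Ythdf3-/- label and 727 and 397 CPM under the WT label. Psmb9, the counterpart of Psmb6, had 349, 193 and 293 CPM against 242 and 153 CPM, and Psmb10, the counterpart of Psmb7, had 283, 444 and 369 CPM against 552 and 192 CPM. All 3 were lowest in the library labelled WT 2. Per kilobase of exon, the immunoproteasome forms made up 49.9, 46.6 and 48.7% of the catalytic transcripts under the Ythdf3-/- label, against 48.5% in the library labelled WT 1 and 35.0% in that labelled WT 2. Psmb8 exceeded Psmb5 in every library, by 1.52 to 4.93 times per kilobase. Psmb9 was below Psmb6 in every library, at 0.182 to 0.369 of its level. Exons of Psmb8 share 186 bases with Gm20496 and those of Psmb9 share 212 bases with Tap1. The levels, ratios and shares that use these genes are therefore uncertain. Psmb10 over Psmb7 ranged from 2.64 to 4.60 in 4 libraries and was 0.967 in that labelled WT 2. None of the 3 passed between the labels, with log2 fold changes of 0.24 (SE 0.34) for Psmb8, 0.41 (SE 0.44) for Psmb9 and -0.10 (SE 0.48) for Psmb10.

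**Figure D3:**
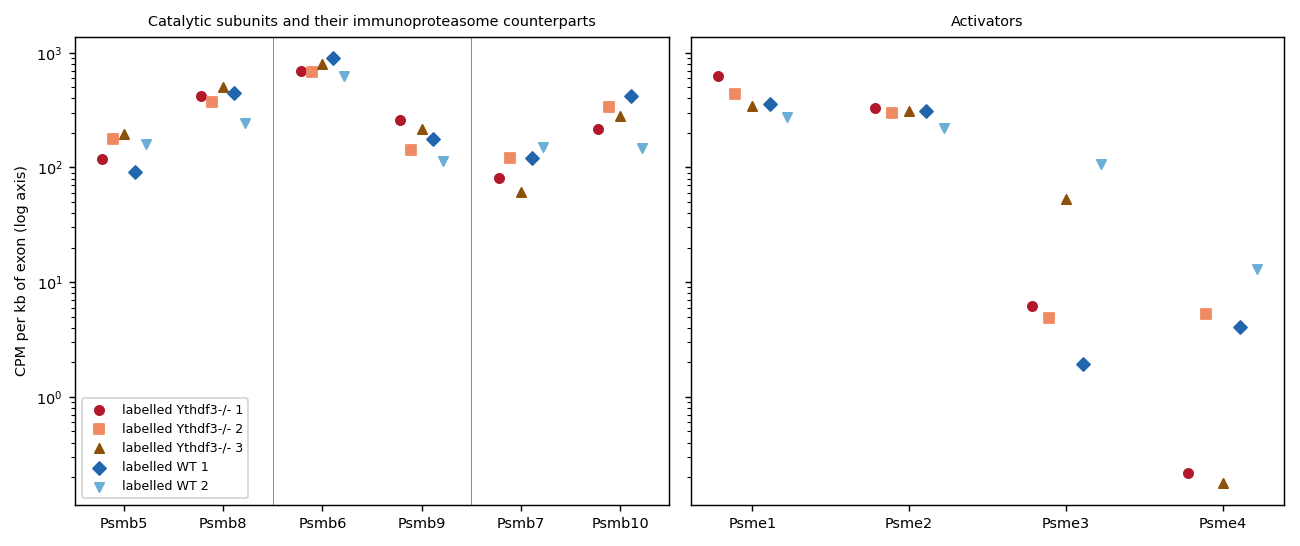
Level per kilobase of exon (vertical log axis, CPM per kb) in each library for catalytic subunits beside their immunoproteasome counterparts (left) and for activators (right). Psmb8 lies above Psmb5 and Psmb9 below Psmb6 in every library, and Psme3 and Psme4 spread far more widely than Psme1 and Psme2.

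In the 19S base the scaffold subunits went both ways. Psmd2, which binds ubiquitin shuttle factors, had 297, 262 and 362 CPM under the Ythdf3-/- label and 162 and 73.0 CPM under the WT label. Every library labelled Ythdf3-/- was above both labelled WT, with means of 307 ± 51.0 CPM (SD, n = 3) and 118 ± 63.0 CPM (SD, n = 2). Its log2 fold change of 1.31 (SE 0.49) had the smallest p of all members and did not pass (edgeR adjusted p = 0.964). Leaving out WT 2 gave 0.89, and leaving out WT 1 gave 1.94. The longest protein-coding transcript of Psmd2 aligned to a transcript of Gm5422 at 95% identity or more, so its counts are uncertain. Psmd4, a ubiquitin receptor, had 171, 359 and 241 CPM under the Ythdf3-/- label, again above the 146 and 115 CPM of the WT label (log2 fold change 0.90, SE 0.49). Psmd1, the partner scaffold of Psmd2, lay the other way, at 155, 90.0 and 75.4 CPM against 193 and 168 CPM (log2 fold change -0.84, SE 0.55). Its exons share 301 bases with Gm21972.

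Psmd2 lies on chromosome 16 (20651652 to 20663414, plus strand, GENCODE M21 on GRCm38). Its promoter is shown as that of the member with the smallest p, from 140 bases before to 10 after the RefSeq start, with CCGGAAG on either strand in capitals.
Psmd2 promoter (chr16:20651512-20651661, plus strand): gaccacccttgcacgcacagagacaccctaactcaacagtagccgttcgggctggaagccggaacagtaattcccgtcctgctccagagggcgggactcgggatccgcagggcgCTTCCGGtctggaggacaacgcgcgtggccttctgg

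Among the 6 ATPases of the base, Psmc1 and Psmc6 did not overlap between the labels and pointed in opposite directions. Psmc1 had 233, 229.6 and 287 CPM under the Ythdf3-/- label and 330.0 and 319.7 CPM under the WT label (log2 fold change -0.47, SE 0.36). Psmc6, the least abundant ATPase per kilobase, had 83.5, 96.95 and 65.3 CPM against 44.6 and 56.5 CPM (log2 fold change 0.60, SE 0.81). Psmc3, the most abundant per kilobase, was steady in 4 libraries and low in 1. It had 465, 468 and 425 CPM under the Ythdf3-/- label, 559 CPM in the library labelled WT 1 and 138 CPM in that labelled WT 2. The exons of Psmc3 share 291 bases with Slc39a13. Psmc2, Psmc4 and Psmc5 overlapped between the labels. Psmc4 ranged most of these, from 94.1 to 320.0 CPM under the Ythdf3-/- label.

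In the lid, Psmd3 and Psmd8 had the smallest p. Psmd3 had 94.4, 117 and 56.7 CPM under the Ythdf3-/- label, all below the 168 and 164 CPM of the WT label (log2 fold change -0.98, SE 0.58). Psmd8 had 244, 249 and 226 CPM against 156 and 121 CPM (log2 fold change 0.71, SE 0.42), with groups that do not overlap and little spread under the Ythdf3-/- label. Neither passed. Psmd14, the deubiquitinase of the lid, had 164, 99.7 and 51.0 CPM under the Ythdf3-/- label and 96.5 and 100.1 CPM under the WT label, with groups that overlapped. Psmd6, Psmd7, Psmd11 and Psmd12 overlapped between the labels and differed at most 2.19 times among libraries. Psmd7 was the most abundant lid subunit per kilobase.

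Psmd13, named after its values were seen, was nearly missing from 1 library. It had 483, 11 and 922 counts under the Ythdf3-/- label, which is 76.0, 1.21 and 131 CPM, and 88.5 and 86.0 CPM under the WT label. Of the other 7 lid subunits, Psmd12 was also lowest in the library labelled Ythdf3-/- 2, at 112 CPM against 144 to 208 CPM elsewhere, and the lid summed to 1307 CPM there. Exons of Psmd13 share 293 bases with those of Sirt3.

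Of the chaperones that guide base assembly, Psmd5 had the largest fitted difference. It had 106, 189.6 and 312 CPM under the Ythdf3-/- label and 86.7 and 54.2 CPM under the WT label, with all libraries of the first above those of the second. Its log2 fold change was 1.44 (SE 0.63, edgeR adjusted p = 0.983). The 3 libraries labelled Ythdf3-/- also spread widely among themselves, with an SD of 104 CPM around their mean of 203 CPM. Psmd10, also known as the oncoprotein gankyrin, had 159, 133 and 197 CPM against 232 and 125 CPM, and Psmd9 had 70.8, 111 and 49.7 CPM against 106 and 50.8 CPM. Both overlapped.

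The activators divided into an even pair and an uneven pair. Psme1 and Psme2 encode the alpha and beta subunits of PA28, which is induced by interferon and opens the core for peptide production. They lie 5911 bases apart on chromosome 14. Psme1 had 705, 487 and 382 CPM under the Ythdf3-/- label and 398 and 307 CPM under the WT label (log2 fold change 0.49, SE 0.38). Psme2 had 324, 290.1 and 302 CPM against 302 and 215 CPM (log2 fold change 0.16, SE 0.37). Both overlapped between the labels and were lowest in the library labelled WT 2, as the immunoproteasome subunits were. Psme1 exceeded Psme2 per kilobase in every library, by 1.11 to 1.91 times. The longest protein-coding transcript of Psme2 aligned to a transcript of Psme2b at 95% identity or more, so this ratio is uncertain.

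Psme3 encodes the nuclear activator PA28 gamma, and Psme4 encodes PA200. Psme3 had 106, 118 and 987 counts under the Ythdf3-/- label, against 85 and 2557 counts under the WT label. In CPM this is 16.7, 13.0 and 141 against 5.11 and 285, so that each label held both low and high libraries. Its log2 fold change of -1.50 (SE 1.50) became 3.45 without the library labelled WT 2, and its direction under limma voom was also the reverse, at 0.71. Psme4 had 9, 309 and 8 counts under the Ythdf3-/- label and 439 and 760 under the WT label, or 1.42, 34.0 and 1.14 CPM against 26.4 and 84.7 CPM. The groups overlapped, and its log2 fold change of -2.27 (SE 1.92) ranged from -5.55 to -1.14 with 1 library left out at a time. For Psme3 as for Psme4, WT 2 was the highest library. The part of that library's summed mitosis markers and Gata1 counts in these values was not tested.

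Both lie on chromosome 11, which holds 8 of the 39 members, Psme3 at 101316213 to 101323537 and Psme4 at 30771726 to 30880361 (GENCODE M21 on GRCm38), each on the plus strand. Their promoters are shown since these are the activators that were read unevenly, from 140 bases before to 10 after the RefSeq start. Capitals mark CCGGAAG on either strand, and in Psme4 also TGACNNNGC, whose reverse lies near the start site.
Psme3 promoter (chr11:101316073-101316222, plus strand): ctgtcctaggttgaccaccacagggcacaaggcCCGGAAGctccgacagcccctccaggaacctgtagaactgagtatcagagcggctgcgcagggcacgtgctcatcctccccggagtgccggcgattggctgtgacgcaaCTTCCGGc
Psme4 promoter (chr11:30771635-30771784, plus strand): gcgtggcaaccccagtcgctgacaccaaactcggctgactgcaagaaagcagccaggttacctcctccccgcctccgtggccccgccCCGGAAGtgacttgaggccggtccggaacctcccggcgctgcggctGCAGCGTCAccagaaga

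**Figure D4:**
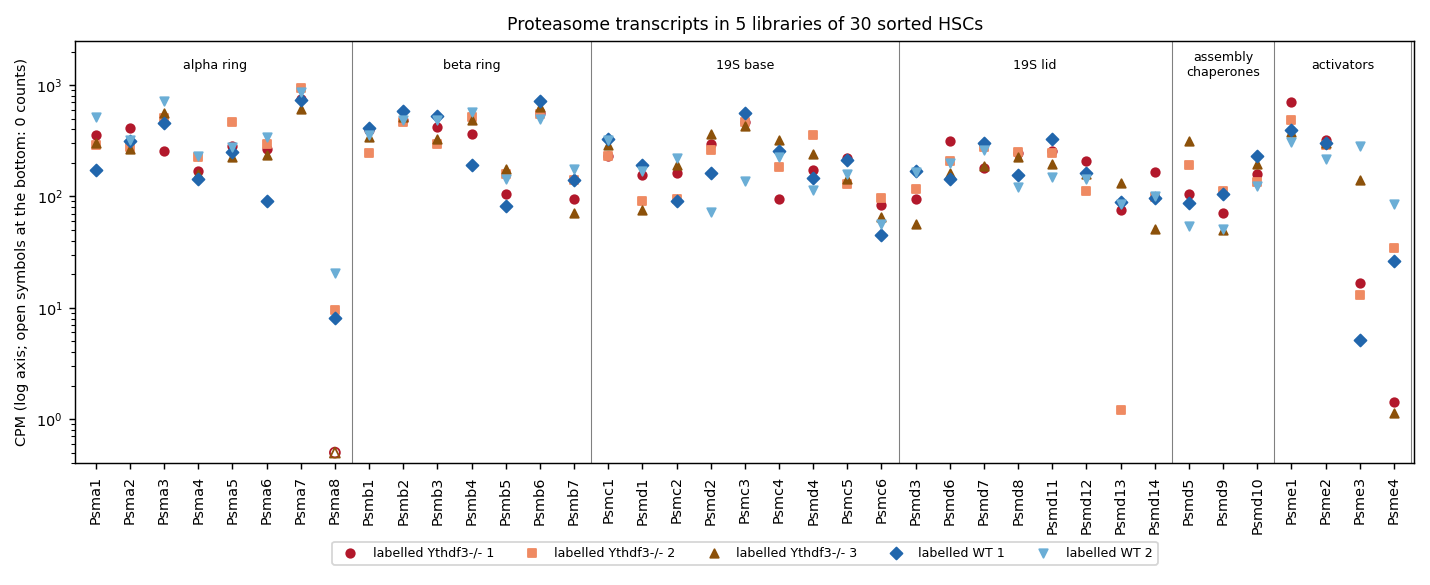
Level in CPM (vertical log axis) of each of the 39 members (horizontal axis, grouped by class) in the 5 libraries, marked by symbol and colour. Most members sit within a narrow band, while Psma8, Psmd13, Psme3 and Psme4 reach 1.42 CPM or less, 0 counts or a wide spread in single libraries.

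Apart from Psma8, Psmd13, Psme3 and Psme4, the subunits were read in quantity everywhere. The other 35 members had at least 349 counts in every library, and their highest library was between 1.26 (Psmb2) and 5.76 (Psmd5) times the lowest, below 2-fold for 13 and above 3-fold for 8. The coefficient of variation was taken over the 5 libraries and ignores the labels. Its median was 31.1% for the 33 members with a mean of 100 to 1000 CPM. The 6 members outside that range, among them Psma8, Psmd13, Psme3 and Psme4, were left out. Over the 2233 other tested genes of that level the median was 41.8%, with quartiles of 29.7 and 55.8%, and 30 of the 33 members were below that median. The range of mean level, not the exact level, was shared in this comparison, and no test was made of it.

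The order of subunits by level was also alike between libraries. Over these 33 members Spearman's rho of log2(CPM + 1) between 2 libraries lay between 0.534 and 0.823, and over the 2233 other genes between 0.329 and 0.548. It was higher for the members in 10 of 10 pairs of libraries. Members of a library share its depth, and their lengths differ in the same way in each, so these values are a description. The lowest value for the members was that between the libraries labelled Ythdf3-/- 3 and WT 2.

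**Figure D5:**
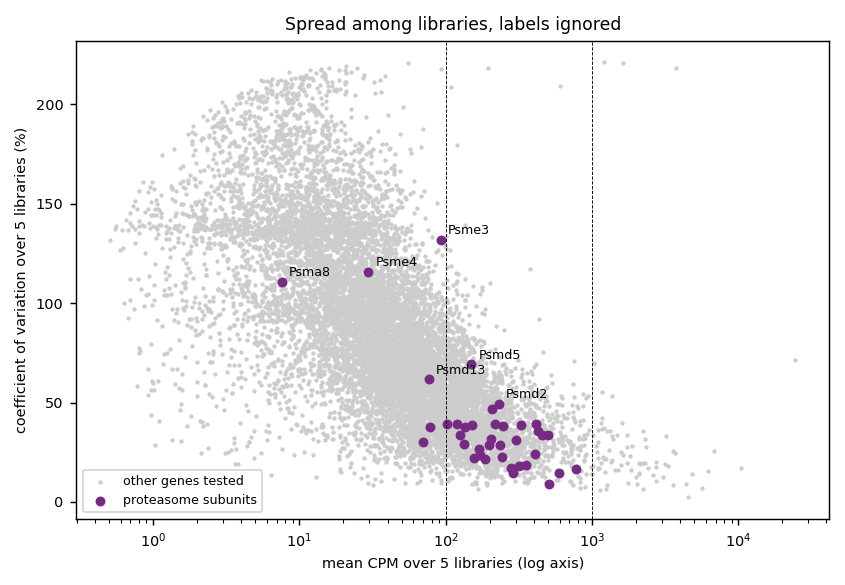
Coefficient of variation over the 5 libraries (vertical axis, %) against mean level (horizontal log axis, CPM) for proteasome subunits (purple) and the other genes tested (grey); dashed lines mark 100 and 1000 CPM. Between the lines the subunits have a median of 31.1% and other genes one of 41.8%. Psme3, with a mean of 92.1 CPM, lies outside the lines at 132%.

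Around the proteasome, no gene of the related lists passed between the labels. Of 15 tested assembly factors and proteins bound to it, 0 passed, 5 were fitted higher and 10 lower under the Ythdf3-/- label, with a median log2 fold change of -0.43. The lowest p of the list was that of Shfm1, which encodes a small lid subunit outside the naming pattern. It had 79.1, 94.9 and 125 CPM under the Ythdf3-/- label and 219 and 209 CPM under the WT label (log2 fold change -1.19, SE 0.49, edgeR adjusted p = 0.973). Zfand5, a zinc finger protein that stimulates the proteasome, had 167, 188 and 185 CPM against 75.4 and 113 CPM (log2 fold change 0.84, SE 0.52). Neither gene's libraries overlapped between the labels. Of the 15 tested, 2 lay wholly above under the Ythdf3-/- label (background 9.74% of genes) and 4 wholly below (background 11%).

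Among factors that control proteasome genes, 0 of 8 tested passed, with 5 fitted higher and 3 lower and a median log2 fold change of 1.01. Ddi2, the protease that releases NRF1 from the endoplasmic reticulum, was low in all libraries, at 7.08, 11.3 and 8.98 CPM under the Ythdf3-/- label and 0.420 and 0.112 CPM under the WT label. The groups did not overlap, and the levels under the WT label rest on 7 counts and 1 count. Of the 8 tested, 2 lay wholly above under the Ythdf3-/- label (background 9.74% of genes) and 0 wholly below (background 11%). Nfe2l2, which encodes NRF2, the regulator of antioxidant genes, had 114, 167 and 191 CPM against 144 and 26.5 CPM (log2 fold change 0.81, SE 0.77).

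Of 14 tested genes of ubiquitin, shuttle factors and p97, 0 passed, with 10 fitted higher and 4 lower and a median of 0.27. The median over all tested genes was -0.06.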

How the data were processed

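The deposited table holds raw read counts per gene symbol, made by the authors with HISAT2 2.2.1 and HTSeq 0.12.4 on mm10, per the submitters' processing notes; how HTSeq was set for strand and multiply mapped reads, and its annotation, are not given here in any source used. Members and lists were chosen with earlier results of these data known. Counts were tested in R 4.3.3 with edgeR 4.0.16 (quasi-likelihood, TMM, default expression filter, robust, no covariate), Benjamini-Hochberg at 0.05 over all genes; SEs were derived from the F statistic. The test was checked on simulated counts: it recovered known changes at low spread, but none where every gene was given the common dispersion of all genes, which is wider than most members' own spread. DESeq2 1.42.0, limma 3.58.1 voom, 3 scalings, 2 filters, left-out libraries and a replicate block were alternatives. CPM is counts over the library total, so 1 count was worth 0.0601 to 0.157 CPM. Replicates are mice, per the series text. Values in every library were given, by rule, for catalytic subunits, activators, the 2 smallest p per class, members under 1 CPM somewhere, Psmb8 to Psmb10 and the 2 smallest p per related list. Some of these are not reported here. Genes shown beyond the rule, such as Psma7, Psmd13, Psmd14 and Psmc3, were chosen after their values were seen. Exon lengths (GENCODE M21) merge protein-coding transcripts of the basic set. The longest protein-coding transcript of 12 members aligned to another gene's transcript over 150 bases or more at 95% identity or more (BLAST 2.17.0). These were Psma3, Psma4, Psma5, Psmb3, Psmb5, Psmb7, Psmc1, Psmd1, Psmd2, Psmd11, Psmd13 and Psme2. Exons of 9 members share bases with another gene. The counts of all these members are uncertain. Promoters are RefSeq's. Protein comparisons were not made.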

Additional observations from a re-analysis of the deposited data

How the results depend on the processing

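No member tested passed under any alternative run (Psma8 was not tested under the stricter filter). Psma8, Psmd13 and Psme4 had 11 counts or fewer in single libraries, which limits the precision there. Genes passing over the whole table numbered 0 in edgeR, 594 with DESeq2 and 21 with no filter, and 0 to 1 with 1 library left out. The members' median log2 fold change, -0.15, ran from -0.17 to -0.020 with 1 library left out and was -0.25 without both WT 2 and Ythdf3-/- 1. With the replicate number as a block (replicate block) it was -0.014 and 0 genes passed. Replicate 3 exists only under the Ythdf3-/- label, so that library did not inform the label effect in this fit. Numbers are not said to pair mice. Deviations of same-numbered libraries correlated at -0.00871 and 0.00363. The 2 libraries labelled WT deviate as mirror images, so the other pairings of Ythdf3-/- 1 and 2 gave 0.00871 and -0.00363. These values do not settle pairing. The median over all genes, -0.06, became 0.31 without WT 1 and 0.22 without WT 2. No direction was called, and many turned: of 39 members, 19 did with a single library left out, 9 without both WT 2 and Ythdf3-/- 1, 5 with voom and 5 with the replicate block, under which 20 were fitted lower in place of 25. Genes named by the rule that turned had these log2 ranges over single left-out libraries: Psme3 (-3.40 to 3.45), Psmb10 (-0.63 to 0.80), Psmb5 (-0.11 to 0.81), Psmb6 (-0.34 to 0.087), Psmd10 (-0.55 to 0.25), Psme2 (-0.019 to 0.38) and Psmb8 (-0.079 to 0.69). Psme3 was 0.71 with voom. Without both WT 2 and Ythdf3-/- 1, Psme3 was 3.85, Psme2 -0.087, Psma3 0.17, Psmb8 -0.088 and Psmb9 -0.050, and with the replicate block Psmb10 was 0.042. The cause was not tested. Added after seeing the data, members whose libraries do not overlap between labels numbered 14 of 39 without Ythdf3-/- 1 (background 34.4%) and 29 without both (66%).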
